A study of Homo sapiens with 29 samples.

Results

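Open chromatin was examined around the starts of 7 genes that the transcription factor NRF2 switches on when cells meet electrophiles: SLC7A11, GCLC, GCLM, TXNRD1, SRXN1, NQO1 and HMOX1. Members were the ATAC-seq peaks within 50 kb of each start on build hg19, in any of the 29 libraries of the series. After overlapping peaks of all libraries were merged, 66 of 166696 regions met this rule. The loci held 8 regions at SLC7A11, 7 at GCLC, 4 at GCLM, 12 at TXNRD1, 16 at SRXN1, 8 at NQO1 and 11 at HMOX1. The rule uses gene names and positions and no peak values, but the genes were chosen with earlier results of these data known. The question was whether covalent probes open these loci.

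ATAC-seq, in which a transposase cuts and tags accessible DNA, was run on 22Rv1, a line of human prostate carcinoma cells. The unmodified parental line gave 5 groups of 3 libraries, treated for 3 h with DMSO (0.1%), with 20 µM of the stereoisomers WX-02-23 or WX-02-43, or with pladienolide B (PladB) at 10 nM or 100 nM. Engineered 22Rv1 cells, which stably expressed Y36C-PHF5A in both lines, carried WT-FOXA1 or C258A-FOXA1 under control of doxycycline (Dox), with 2 libraries in each of 7 groups. Both engineered lines received Dox with DMSO, WX-02-23 or PladB (100 nM), and the WT-FOXA1 line also received DMSO without Dox. PladB is a natural product ligand of the splicing factor SF3B1 and not a covalent probe, whereas the stereoprobes carry a group that reacts with cysteines. FOXA1 is a pioneer factor that binds closed chromatin, and the engineered lines still carried their own FOXA1. The labels do not say that replicates were separate cultures, so p-values measure the spread between these libraries only.

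In resting cells the adaptor KEAP1 holds NRF2 and passes it to a ubiquitin ligase for destruction. KEAP1 is rich in reactive cysteines, and when electrophiles modify them NRF2 escapes, enters the nucleus, pairs with a small MAF protein and binds antioxidant response elements. The targets studied here import cystine, make glutathione, recycle thioredoxin and peroxiredoxin, and detoxify quinones and heme, which makes them a common readout of reactive small molecules.

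The 250 bases before 4 of the RefSeq starts (build GRCh38.p14, gene strand, 5′ to 3′) are shown because they hold or lack the core of that element. Capitals mark TGANNNNGC or, on the other strand, GCNNNNTCA. GCLC, which lacks the core in this window, is shown for contrast.
NQO1: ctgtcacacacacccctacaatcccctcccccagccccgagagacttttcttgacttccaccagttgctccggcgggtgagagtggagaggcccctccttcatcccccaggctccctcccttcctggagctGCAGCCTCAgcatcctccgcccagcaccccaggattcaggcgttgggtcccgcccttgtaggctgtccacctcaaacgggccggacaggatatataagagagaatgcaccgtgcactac
GCLM: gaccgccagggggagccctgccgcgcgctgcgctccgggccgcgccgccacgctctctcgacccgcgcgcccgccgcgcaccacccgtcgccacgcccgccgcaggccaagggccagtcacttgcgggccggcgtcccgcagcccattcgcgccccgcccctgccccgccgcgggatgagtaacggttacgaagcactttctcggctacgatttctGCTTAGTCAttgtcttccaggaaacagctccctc
TXNRD1: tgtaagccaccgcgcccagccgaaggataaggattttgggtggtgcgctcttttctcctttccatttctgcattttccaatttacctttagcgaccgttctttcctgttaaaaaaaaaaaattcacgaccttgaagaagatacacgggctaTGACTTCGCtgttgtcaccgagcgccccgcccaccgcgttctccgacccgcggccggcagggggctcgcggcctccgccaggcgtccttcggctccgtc
GCLC: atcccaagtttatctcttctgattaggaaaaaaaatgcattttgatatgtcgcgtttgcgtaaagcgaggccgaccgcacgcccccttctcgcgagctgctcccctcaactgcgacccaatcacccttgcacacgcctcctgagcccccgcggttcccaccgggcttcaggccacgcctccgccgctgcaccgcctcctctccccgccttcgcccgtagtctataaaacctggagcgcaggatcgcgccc
The core lay 119 to 111 bases before the NQO1 start (TGAGGCTGC on the other strand), 34 to 26 bases before the GCLM start (TGACTAAGC on the other strand) and 99 to 91 bases before the TXNRD1 start (TGACTTCGC on the gene strand). The matches at GCLM and TXNRD1 also met the stricter form TGACNNNGC. These letters are common: 35.2% of 35116 RefSeq promoters held the looser form in the same 250 bases on either strand, and 10.9% the stricter form. The 250 bases before the SRXN1 start (80.4% G and C) held neither. A second TXNRD1 start in RefSeq lies 71.253 kb from the first, outside the window examined, and its upstream 250 bases held 2 matches. The RefSeq table covered 5 of the 7 genes, without HMOX1 and SLC7A11. A match is a description of letters and not evidence of a bound site.

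Each library was given by its own list of peaks, 82538 to 98193 in parental and 62832 to 92658 in engineered cells. Read totals were not given, so depth was read from the lists as background, in reads per base, which was 0.662 to 1.502 in parental and 0.546 to 1.256 in engineered libraries. The weakest summits reported held 5 to 8 reads, so a region without a peak may still be open below that limit. The peak names of parental and engineered lists carry different run names, so cell line and processing run cannot be told apart.

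The loci were already open under DMSO. For 6 of the 7 genes a merged region covered the start, and each of the 29 libraries, DMSO or treated, had a peak in it. Whether the peak of each library reached the start itself was not checked. Of the 66 regions, 24 (36.4%) were held by all 29 libraries, against 21.5% of all regions. At SLC7A11, the cystine-glutamate antiporter subunit that imports the precursor of glutathione, the start region (chr4:139162509-139163889) had a fold enrichment over local background, by the authors' value, of 12.6 to 17.6. GCLC, the catalytic subunit of glutamate-cysteine ligase, had the lowest start region (chr6:53409193-53410087), at 4.75 to 6.68, over a local background of 5.82 to 11.2 reads per base. GCLM, the modifier subunit of that ligase, had 10.3 to 15.2 (chr1:94374173-94375578). SRXN1, the sulfiredoxin that repairs overoxidised peroxiredoxin, had 8.36 to 14.1 (chr20:633331-634367). NQO1, a quinone reductase, had 12.2 to 17.0 (chr16:69760010-69760992). HMOX1, the inducible heme oxygenase, had 9.48 to 15.2 (chr22:35776730-35777467). Fold, p-value and rank of a peak are the authors' values or derived from them, and describe peaks within a list.

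TXNRD1, thioredoxin reductase, was the exception, since no library had a peak on the start given by the rule. Its nearest region (chr12:104607495-104608168) ended at −1.389 kb and was held by all 29 libraries, at fold 6.17 to 12.3. A second region 3.54 kb beyond the start (chr12:104613097-104614478) was also held by all 29. Distances here run along the chromosome from the start to the nearest edge of a region, and are negative towards lower coordinates. The other strong regions held by all 29 libraries included HMOX1 −29.528 kb and HMOX1 +18.182 kb, which stood at mean percentiles of 97.9 and 96.0 by the authors' p-value within their lists. GCLC +2.503 kb (chr6:53412430-53413330) stood at 94.3, above the GCLC start region itself at 69.9. SRXN1 −42.786 kb stood at 91.0. The 24 regions held throughout had a median width of 898 bp, against 765 bp for such regions of the whole series. At the other end, 10 of the 66 regions (15.2%) appeared in 1 library only, against 16.9% of all regions.

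**Figure D1:**
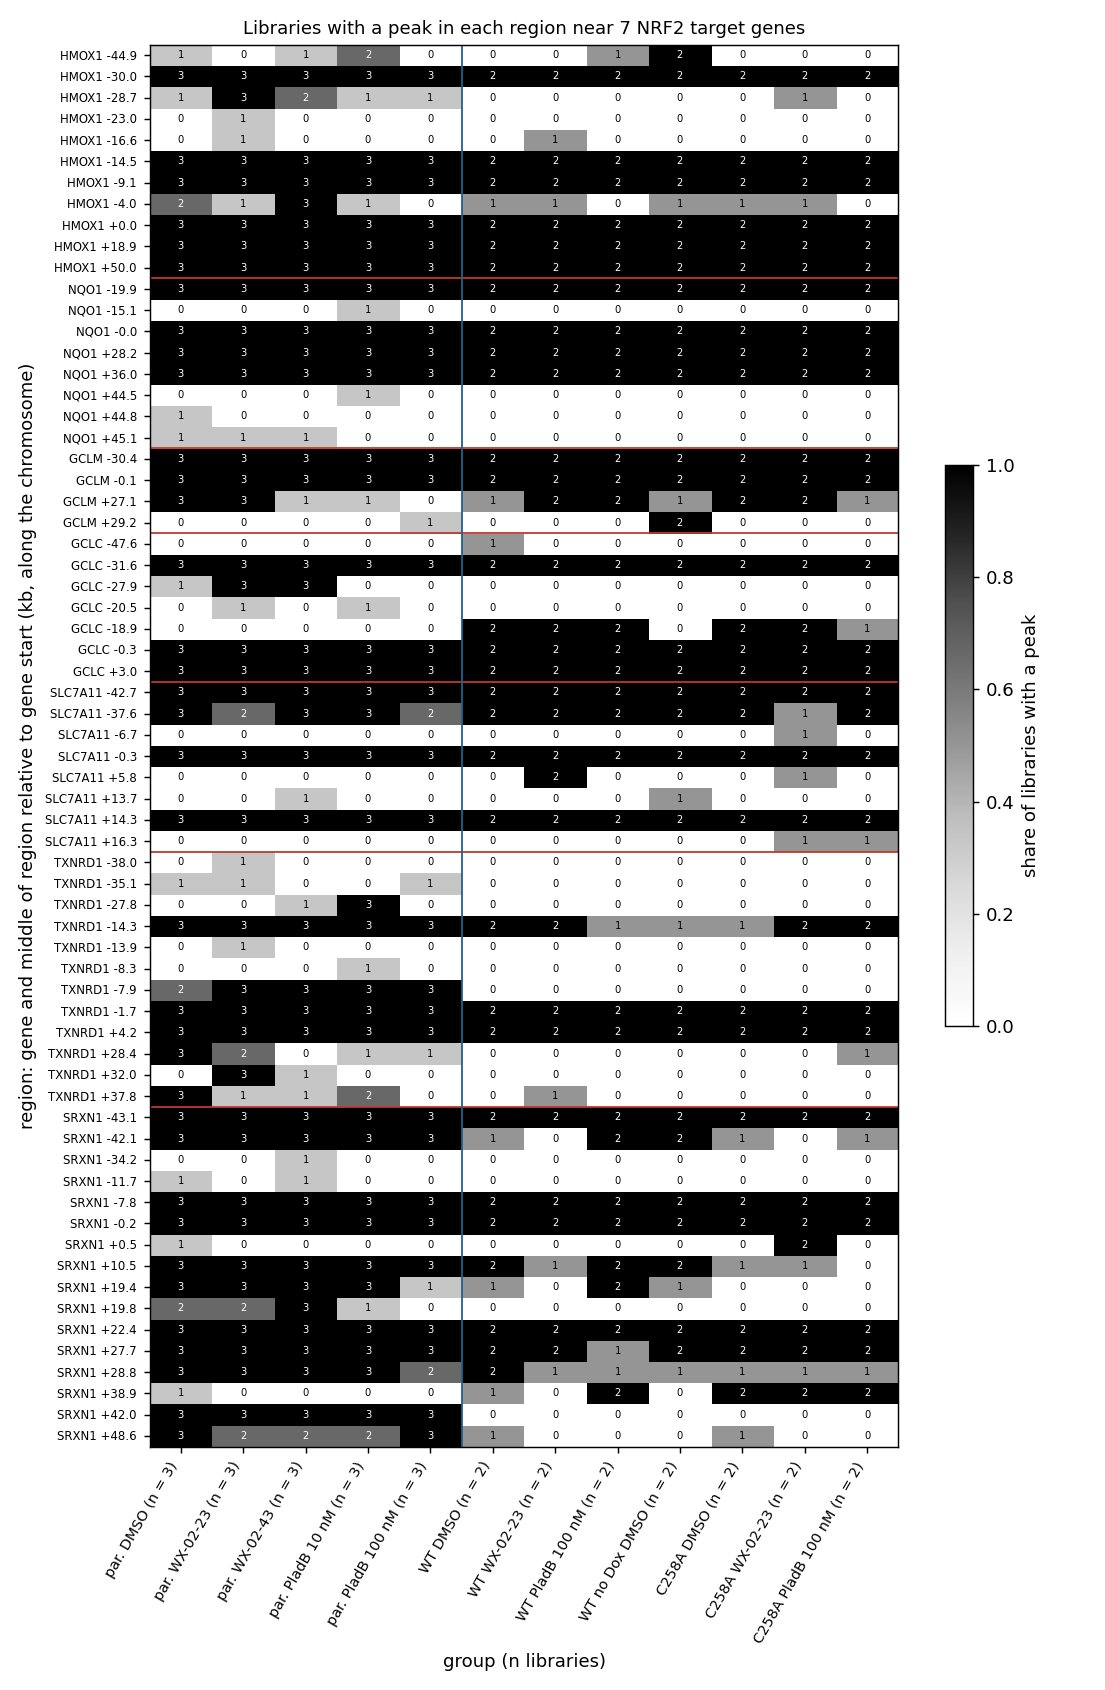
Libraries with a peak in each of the 66 regions (rows, with the gene and the distance of the middle of the region from the start in kb) for the 12 groups (columns); numbers count libraries and darker cells hold a larger share. The 24 regions held by all 29 libraries run as unbroken dark rows, and the regions that vary are mostly at TXNRD1 and SRXN1.

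No general gain of peaks was detected at the 7 loci with WX-02-23 in parental cells. Gained regions are those with a peak in each treated library and in no DMSO library, and lost regions the reverse. Of 54 regions seen in WX-02-23 or DMSO libraries, 1 was gained and 0 were lost, against 1.82% gained and 1.18% lost among all regions. Peaks were found in more WX-02-23 than DMSO libraries in 9 regions and in fewer in 10, where 21.9% and 19.5% of all regions did so. The gained region lay 31.85 kb beyond the TXNRD1 start (chr12:104641407-104641742). Its summits held 15, 10 and 12 reads in the 3 WX-02-23 libraries, and no DMSO library had a peak. With WX-02-43 1 of 3 libraries had it, with 13 reads, and no PladB or engineered library did. In the WX-02-23 lists this peak stood at percentiles 30.4, 5.12 and 26.4 by p-value, so it was weak in each. The smallest exact two-sided p for 3 against 3 libraries is 0.1, so no single region can pass 0.05. At a q-value of 1e-05 or below, 0 regions remained gained. Without DMSO replicate 1 or replicate 2 the count was 2, and without WX-02-23 replicate 1 the count of lost regions was 1. Shares of gained and lost regions over the genome were computed for the full rule and all libraries only. Counts under a changed rule or with a library left out, here and below, cannot be set against them.

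The number of peaks per locus overlapped that of DMSO. Over the 7 loci the DMSO libraries had 44, 49 and 43 peaks (45.3 ± 3.21, SD, n = 3) and the WX-02-23 libraries 49, 45 and 46 (46.7 ± 2.08, n = 3). The groups overlapped, and the difference of 1.33 had a 90% interval of -4 to 6. GCLC had 4, 3 and 3 peaks with DMSO and 5, 4 and 4 with WX-02-23. SRXN1 had 12, 13 and 13 with DMSO and 12, 11 and 11 with WX-02-23. GCLM had 4 in each of the 6 libraries. None of the 7 loci was free of overlap between the groups, where 3.96% of 100 kb tiles of the genome had more peaks in all treated libraries and 2.62% fewer. The adjusted p was 1 at each locus (exact two-sided permutation test, Benjamini-Hochberg adjustment over all tiles and the 7 windows).

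Below the rule for a gain or loss, single regions were seen more often with the stereoprobes or less often. Those given here were chosen after their values were seen. HMOX1 −28.602 kb (chr22:35748174-35748458) had a peak in 3 of 3 WX-02-23, 2 of 3 WX-02-43 and 1 of 3 DMSO libraries. GCLC −27.787 kb (chr6:53381919-53382140) had one in 3 of 3 WX-02-23, 3 of 3 WX-02-43 and 1 of 3 DMSO libraries, and in 0 of 6 PladB and 0 of 14 engineered libraries. The 7 GCLC summits held 18 to 24 reads over a local background of 4.05 to 5.49 reads per base, with folds of 3.20 to 4.56. In the other direction, TXNRD1 +37.597 kb (chr12:104647154-104647461) had a peak in 3 of 3 DMSO, 1 of 3 WX-02-23 and 1 of 3 WX-02-43 libraries. The region at HMOX1 −8.665 kb was held by all 29 libraries. HMOX1 −3.834 kb (chr22:35772908-35773226) was present in 2 of 3 DMSO, 1 of 3 WX-02-23 and 3 of 3 WX-02-43 libraries.

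WX-02-43 gave 0 gained and 1 lost of 52 regions, where 0.34% and 0.369% of all regions were gained and lost. The lost region lay 28.222 kb beyond the TXNRD1 start (chr12:104637779-104638098) and also kept a peak in 2 of 3 WX-02-23 libraries. At a q-value of 1e-05 or below, and with lists of equal length, it was no longer lost. Without DMSO replicate 1 the gained count was 1, and without WX-02-43 replicate 1 the lost count was 3. Peaks over the 7 loci numbered 45, 42 and 42 (43 ± 1.73, n = 3), which overlapped DMSO, with a difference of -2.33 (90% interval -7 to 2). At no locus were the groups apart, where 1.0% of tiles had more peaks in all treated libraries and 1.47% fewer.

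The stereoisomers were compared directly at their shared dose of 20 µM and time of 3 h, the 1 pair of related compounds in the series. No region among 54 was held by all libraries of one and none of the other, against 1.6% and 1.07% of all regions in the direction of WX-02-23 and WX-02-43. Without WX-02-23 replicate 3, or WX-02-43 replicate 1 or 3, 1 region was held by WX-02-23 alone, and without WX-02-23 replicate 1, 1 was held by WX-02-43 alone. TXNRD1 was the 1 locus where peak numbers did not overlap, with 8, 7 and 7 peaks for WX-02-23 and 5, 4 and 6 for WX-02-43, where 3.97% of tiles did so in this direction and 1.84% in the other. That difference of 2.33 (90% interval 1 to 4) had an exact two-sided p of 0.1, the smallest possible, and an adjusted p of 1. With lists of equal length it was 0, and within 25 kb it was 0.667. The sum over the 7 loci differed by 3.67 (90% interval 0 to 7), and by 0.667 with lists of equal length. At HMOX1, NQO1 and GCLM the interval ran from 0 to 1, 0 to 3 and 0 to 1 peaks. At GCLC, SLC7A11 and SRXN1 it ran from 0 to 1, -1 to 0 and -2 to 0. A p that misses the threshold does not show that the stereoisomers act alike.

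**Figure D2:**
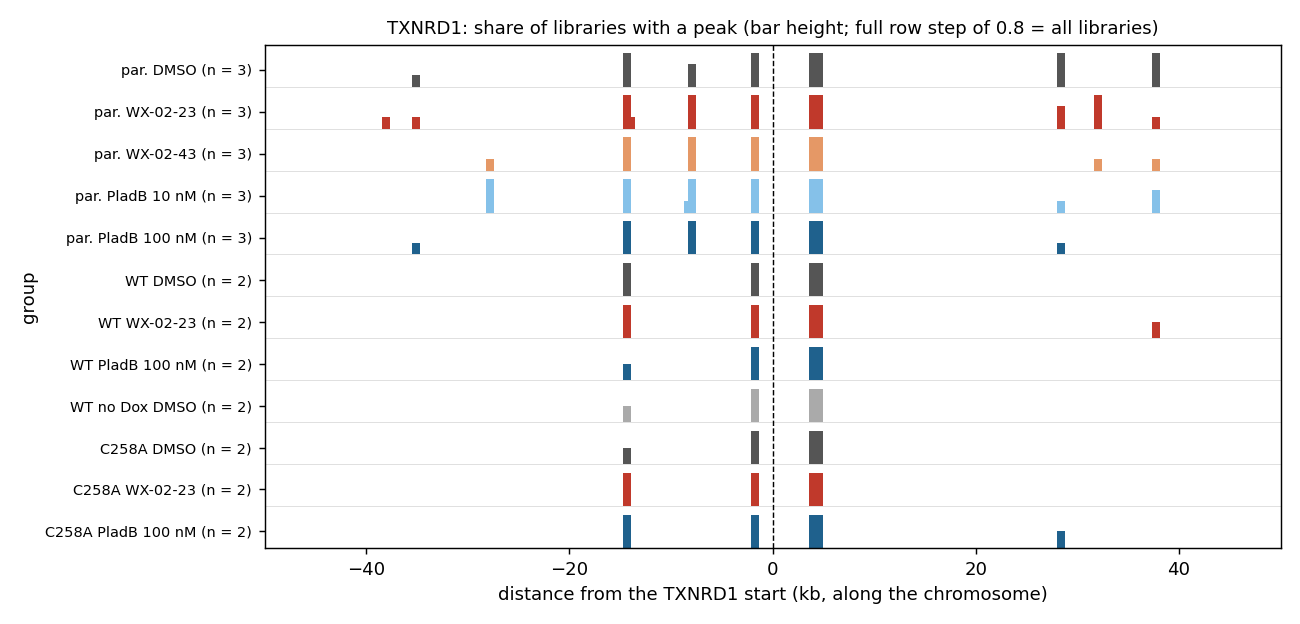
Share of libraries with a peak (bar height within each row) along 50 kb on each side of the TXNRD1 start (dashed line), for 12 groups; regions narrower than 0.8 kb are drawn 0.8 kb wide. Bars at 31.85 kb appear with WX-02-23 (3 of 3 parental libraries) and WX-02-43 (1 of 3), and the regions at −1.389 kb and 3.54 kb are full in all rows.

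PladB at 100 nM went with fewer peaks at these loci, as in the rest of its lists. Of 49 regions 0 were gained and 2 lost, where 0.187% and 1.68% of all regions were. Peaks were found in more PladB than DMSO libraries in 2 regions and in fewer in 15, where 11.3% and 29.4% of all regions did so. The lost regions were GCLM +26.863 kb (chr1:94401875-94402300) and TXNRD1 +37.597 kb (chr12:104647154-104647461). At the GCLM region the DMSO summits held 9, 13 and 12 reads and the WX-02-23 summits 17, 13 and 15. A single library had a peak with WX-02-43 (11 reads) and another with PladB at 10 nM (7 reads), and none with PladB at 100 nM. In the WT-FOXA1 line, however, both PladB libraries had a peak there, with 8 and 11 reads. Without a PladB or DMSO library the count of lost regions was 2 to 3. Within 25 kb of the starts 0 regions were lost.

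Over the 7 loci the PladB libraries at 100 nM had 36, 41 and 39 peaks (38.7 ± 2.52, n = 3), all below the 43 to 49 of DMSO. The difference was -6.67 (90% interval -13 to -2). It was -3.33 with lists of equal length and -1.33 within 25 kb. The lists themselves were shorter, with 84547 ± 2558 peaks against 94298 ± 3449 for DMSO, and the background was lower, at 0.705 ± 0.0378 against 0.935 ± 0.0616 reads per base (n = 3 each). The part of depth in this difference was not tested beyond the lists of equal length. SRXN1 was the 1 locus without overlap, with 9, 11 and 11 peaks against 12, 13 and 13, where 5.83% of tiles had fewer peaks in all treated libraries and 0.567% more. Its difference of -2.33 had an exact two-sided p of 0.1, the smallest possible, with an adjusted p of 1, and fell to -0.667 with lists of equal length. At 10 nM, 1 of 53 regions was gained and 0 were lost, against 0.408% and 0.556% of all regions. The gained region, TXNRD1 −27.675 kb (chr12:104581658-104581882), had summits of 7, 8 and 11 reads, near the weakest reported, and was absent at 100 nM. It was no longer gained at a q-value of 1e-05 or below or with lists of equal length. Without PladB (10 nM) replicate 3, 2 regions were lost. Peaks at 10 nM numbered 45, 42 and 43, with a difference from DMSO of -2 (90% interval -7 to 2). At no locus did the 10 nM and DMSO libraries separate, where 1.14% of tiles had more peaks and 1.72% fewer. The 4 parental comparisons with DMSO share the same 3 control libraries.

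**Figure D3:**
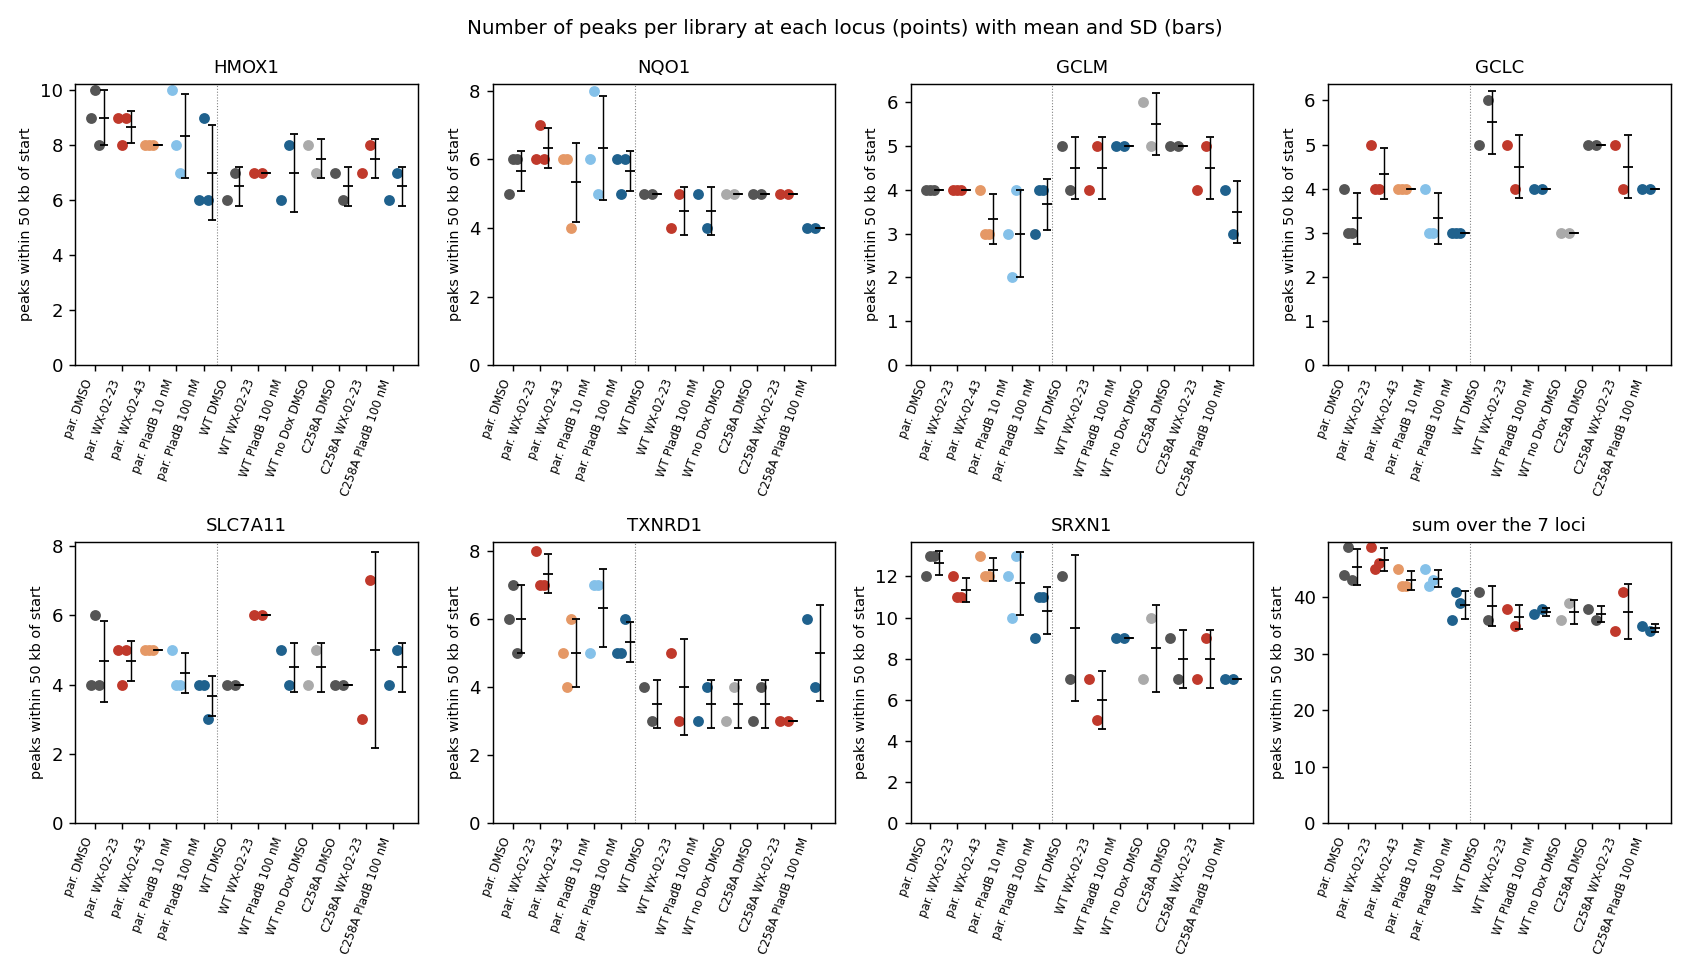
Number of peaks within 50 kb of each start in every library (points), with the mean and SD of each group (bars), and the sum over the 7 loci in the last panel; the dotted line parts parental from engineered groups. In the sum, the 3 parental PladB 100 nM libraries sit at 36 to 41, under the 43 to 49 of DMSO, and WX-02-23 (45 to 49) overlaps DMSO.

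With WT-FOXA1 and Dox, 1 of 40 regions was gained and 0 were lost after WX-02-23, against 1.31% gained and 11.7% lost among all regions. These 2 WX-02-23 lists were short, at 65324 ± 3524 peaks against 86575 ± 2214 with DMSO (n = 2 each), although their background was 1.08 ± 0.250 against 0.857 ± 0.0177 reads per base. The gained region lay 5.657 kb beyond the SLC7A11 start (chr4:139169160-139169461), with 11 reads in both libraries. It was also seen in 1 of 2 C258A-FOXA1 libraries with WX-02-23 (9 reads) and in none of the other 26 libraries, DMSO, WX-02-43 and PladB included. Leaving out either WX-02-23 library or DMSO replicate 1 gave 2 gained regions. Leaving out WX-02-23 replicate 1, DMSO replicate 1 or DMSO replicate 2 gave 2, 1 and 4 lost regions. SLC7A11 had 6 and 6 peaks with WX-02-23 against 4 and 4 with DMSO (adjusted p = 0.975, exact two-sided permutation test, smallest p 0.333). It was the 1 locus of 7 without overlap, where 1.89% of tiles had more peaks and 32.3% fewer. Over the 7 loci the counts were 38 and 35 against 41 and 36, a difference of -2, which became 3.5 with lists of equal length.

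With C258A-FOXA1, 1 of 40 regions was gained and 0 were lost after WX-02-23, where 2.37% and 2.55% of all regions were. The gained region lay 0.428 kb from the SRXN1 start (chr20:634442-634674), beside the start region, with 17 and 20 reads, and parental DMSO replicate 2 also had it, with 20 reads. Without WX-02-23 replicate 1 the gained count was 5 and without DMSO replicate 2 it was 2. The share of 2.37% is for the full groups and cannot be set beside these counts. Without WX-02-23 replicate 2 or either DMSO library, 1 region was lost. SLC7A11 had 3 and 7 peaks with WX-02-23 and 4 and 4 with DMSO, so the treated libraries lay on both sides of the controls. The sum over the loci was 34 and 41 against 38 and 36, a difference of 0.5, and the groups overlapped at all 7 loci, where 6.38% of tiles had more peaks and 6.87% fewer. Whether the response at these loci differed between the WT-FOXA1 and C258A-FOXA1 lines was not tested.

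PladB in the engineered lines gave 0 gained and 0 lost of 38 regions with WT-FOXA1 and of 37 with C258A-FOXA1. The shares over all regions were 0.915% and 3.05%, and 0.806% and 4.67%. GCLC, whose product limits glutathione synthesis, had 4 and 4 peaks with PladB in both lines, against 5 and 6 with DMSO in the WT-FOXA1 line and 5 and 5 in the C258A-FOXA1 line. In the C258A-FOXA1 line NQO1 (4 and 4 against 5 and 5) and GCLM (4 and 3 against 5 and 5) were also lower without overlap. So 1 of 7 and 3 of 7 loci had fewer peaks in both treated libraries, where 9.24% and 14.9% of tiles did, with more peaks in 2.36% and 2.5%. The C258A-FOXA1 PladB libraries had the lowest group background, 0.567 ± 0.0290 reads per base (n = 2), and the part of depth in their counts was not tested beyond lists of equal length. With 2 libraries a group the smallest exact p is 0.333. In the WT-FOXA1 line, leaving out PladB replicate 1 or DMSO replicate 1 gave 1 and 4 gained regions. Leaving out any 1 of its 4 libraries gave 1 to 2 lost regions. In the C258A-FOXA1 line, leaving out either PladB library or DMSO replicate 2 gave 1 gained region, and leaving out any 1 of the 4 libraries gave 1 to 2 lost regions.

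The 3 lines were also tested together, with treatment labels exchanged within each line in 720 arrangements and a smallest two-sided p of 0.00278. For WX-02-23, 0 of 59 regions and 0 of 7 loci passed an adjusted p of 0.05, and 0 passed an unadjusted exact p of 0.05. Over the genome 0.0% of regions and of tiles passed the adjusted threshold. After adjustment over 151839 regions, the smallest p passes only if many regions reach it, so the adjusted counts of 0 cannot show that nothing changed. Regions held by all libraries compared cannot vary in this test. A region seen in parental cells alone cannot have an exact p below 0.1. The same limits hold for PladB. At the unadjusted threshold 0.57% of regions passed with more and 0.731% with fewer treated libraries, and 6.71% of tiles passed. SLC7A11 had the highest sum of differences in mean peak number, 3 (0 in parental, 2 in WT-FOXA1 and 1 in C258A-FOXA1 cells; exact p = 0.164, adjusted p = 0.796). SRXN1 had the lowest, -4.83 (exact p = 0.15, adjusted p = 0.796). Without parental DMSO replicate 2, 1 region passed the unadjusted threshold, and without C258A-FOXA1 WX-02-23 replicate 1, 1 locus did. For PladB at 100 nM, 0 of 52 regions passed either threshold, where 0.0181% and 0.39% of all regions passed the unadjusted one with more and fewer libraries. GCLC was the 1 locus at an unadjusted p under 0.05, where 5.67% of tiles were. Its sum of differences was -2.83 (-0.333 in parental, -1.5 in WT-FOXA1 and -1 in C258A-FOXA1 cells; exact p = 0.0278, adjusted p = 0.831). It missed that threshold with lists of equal length, within 25 kb, and without parental DMSO replicate 1 or either WT-FOXA1 PladB library. Without WT-FOXA1 DMSO replicate 2, 2 loci passed. For PladB, 1 region passed without parental DMSO replicate 1, without either WT-FOXA1 DMSO library or without C258A-FOXA1 DMSO replicate 2.

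Since the start regions had a peak in every library, presence could not show a change in their signal over local background. A description was added after the data were seen: the percentile of a region's fold among the 35901 regions held by all 29 libraries, within each library. Such ranks depend on local background and library quality, and were not tested. Ranks by the authors' p-value among the same regions are given beside them where the order differs. At SLC7A11 the start region ranked at 94.5, 89.0 and 89.1 in the parental DMSO libraries and at 75.9, 84.5 and 80.4 with WX-02-23. WX-02-43 gave 71.6, 78.5 and 86.4, which also lay under DMSO and overlapped WX-02-23. The reads at the SLC7A11 summit themselves overlapped in parental cells, at 98, 105 and 94 with DMSO and 108, 99 and 96 with WX-02-23. The local background there was 5.22, 6.06 and 5.4 reads per base with DMSO and 7.24, 6.24 and 6.08 with WX-02-23. PladB at 100 nM gave 91.0 to 92.7, inside the DMSO range. In the WT-FOXA1 line the ranks were 92.0 and 95.5 with DMSO and 84.5 and 89.8 with WX-02-23, over summits of 84 and 88 and of 64 and 68 reads. In the C258A-FOXA1 line they were 89.9 and 97.1 with DMSO and 82.5 and 82.9 with WX-02-23, over summits of 83 and 95 and of 66 and 90 reads. Lower ranks without overlap in each of the 3 lines held for 2 of the 24 shared regions near the genes, the starts of SLC7A11 and HMOX1, and for 1.39% of all shared regions. No region of the 24 was higher in all 3 lines, where 1.44% of shared regions were.

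At HMOX1 the start region ranked at 55.3, 54.6 and 58.6 with DMSO and 49.4, 51.0 and 47.0 with WX-02-23 in parental cells. WX-02-43 gave 54.3, 59.9 and 56.0 by fold, above all 3 WX-02-23 libraries and overlapping DMSO. By p-value, however, WX-02-43 lay above parental DMSO at the HMOX1 start, at 71.1 to 75.3 against 61.5 to 70.8. In WT-FOXA1 cells the HMOX1 ranks by fold were 77.3 and 80.3 with DMSO against 73.3 and 62.7 with WX-02-23. In C258A-FOXA1 cells they were 78.3 and 80.9 against 76.4 and 72.2. Ranked by the authors' p-value, the SLC7A11 order of WX-02-23 below DMSO stayed in each line. In parental cells WX-02-43, at 89.9 to 93.8, then lay below WX-02-23, at 94.1 to 94.9, and DMSO, at 95.9 to 98.1. The HMOX1 start with WX-02-23 then overlapped DMSO in parental and WT-FOXA1 cells. In C258A-FOXA1 cells it was higher with WX-02-23 by a narrow margin (82.3 and 82.4 against 79.6 and 82.3). HMOX1 −8.665 kb was higher with WX-02-23 in the 3 lines by p-value, but overlapped DMSO by fold in parental and C258A-FOXA1 cells.

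The NQO1 start region in parental cells ranked by fold at 81.7, 83.0 and 76.4 with DMSO, 84.6, 92.0 and 89.3 with WX-02-23 and 95.3, 94.5 and 93.9 with PladB at 100 nM, all above DMSO. WX-02-43 (89.6, 79.1 and 79.7) overlapped DMSO, and PladB at 10 nM (87.3, 83.8 and 97.3) did not. Ranked by p-value, the parental groups overlapped at NQO1, with 89.9 to 94.8 for DMSO, 93.7 to 94.1 for WX-02-23, 92.2 to 97.9 for PladB at 10 nM and 94.5 to 97.0 at 100 nM. With WT-FOXA1, NQO1 ranked by fold at 94.5 and 94.0 after WX-02-23 against 92.0 and 80.3, and by p-value at 92.4 to 94.2 against 86.5 to 92.4, which separated the groups by a narrow margin. In the C258A-FOXA1 line WX-02-23 gave 92.9 and 77.6 against 81.6 and 83.4, on both sides of DMSO. The SRXN1 start ranked at 52.4, 36.1 and 32.4 with DMSO and 72.6, 55.5 and 57.3 with PladB at 100 nM, but the SRXN1 groups overlapped by p-value, at 50.1 to 67.8 and 65.2 to 76.5. By fold, GCLM overlapped DMSO in each parental group. By p-value the GCLM start lay below parental DMSO with PladB at 100 nM, at 70.1 to 73.6 against 75.0 to 85.7. In the engineered lines the GCLM start ranked higher by fold with WX-02-23. It had 84.4 and 92.2 against 82.2 and 78.3 with WT-FOXA1, and 85.4 and 86.2 against 60.9 and 80.9 with C258A-FOXA1. By p-value GCLM had 83.0 to 86.6 against 79.4 to 80.7 and 85.5 to 86.2 against 66.1 to 79.6, again without overlap in these pairs of libraries. GCLC stayed at 2.31 to 20.6 by fold in all libraries. At TXNRD1 −1.389 kb, WT-FOXA1 cells ranked at 14.3 and 22.5 with DMSO, 47.0 and 47.9 with WX-02-23 and 10.2 and 7.71 with PladB. C258A-FOXA1 cells ranked at 42.7 and 31.0 with DMSO, 39.4 and 33.8 with WX-02-23 and 14.1 and 9.07 with PladB. By fold, parental DMSO libraries at TXNRD1 −1.389 kb spread from 26.6 to 69.6 and overlapped all treated groups. By p-value WX-02-23, at 54.8 to 57.7, lay above DMSO at 15.2 to 47.2, while WX-02-43 and both doses of PladB overlapped DMSO. The TXNRD1 summits held 53, 45 and 45 reads with WX-02-23 and 31, 26 and 35 with DMSO, over a local background of 2.96 to 3.62 and 1.92 to 2.15 reads per base. These values have no test.

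Counted over the 24 shared regions near the genes, the parental WX-02-23 libraries ranked 3 above and 2 below DMSO without overlap, where 9.01% and 9.23% of shared regions did. WX-02-43 ranked 0 above and 1 below (5.67% and 5.48%). PladB ranked 2 above and 0 below at 10 nM (6.53% and 5.9%), and 5 above and 1 below at 100 nM (10.7% and 7.22%). WX-02-23 ranked 7 above and 2 below WX-02-43 (8.01% and 8.58%), and these counts were the same by p-value. SRXN1 +22.047 kb, picked after its values were seen, ranked by p-value at 35.8 to 39.3 with parental WX-02-23. There WX-02-43 had 11.4 to 22.6, parental DMSO 11.2 to 14.5 and parental PladB at 100 nM 32.0 to 44.9. In the WT-FOXA1 line WX-02-23 ranked 7 above and 8 below (29.3% and 21.5%), and in the C258A-FOXA1 line 1 above and 6 below (19.2% and 17.0%). PladB ranked 2 above and 7 below (17.1% and 15.8%) in the former and 7 above and 4 below (21.0% and 16.0%) in the latter. Ranked by p-value, 10 of 24 counts made this way moved by over 1.5 times, and in the C258A-FOXA1 line the balance turned, to 5 above and 3 below for WX-02-23 and to 2 above and 5 below for PladB. The parental WX-02-43 counts became 4 above and 2 below. Parental WX-02-23 then had 4 above and 1 below, PladB 1 below at 10 nM and 3 above at 100 nM. Shares over all shared regions by p-value are not given here for single comparisons. These counts therefore cannot be set against the shares by fold. Over the 3 lines WX-02-23 had 1 region higher and 1 lower by p-value, in place of 0 and 2. By p-value 1.99% of all shared regions were higher and 1.99% lower.

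**Figure D4:**
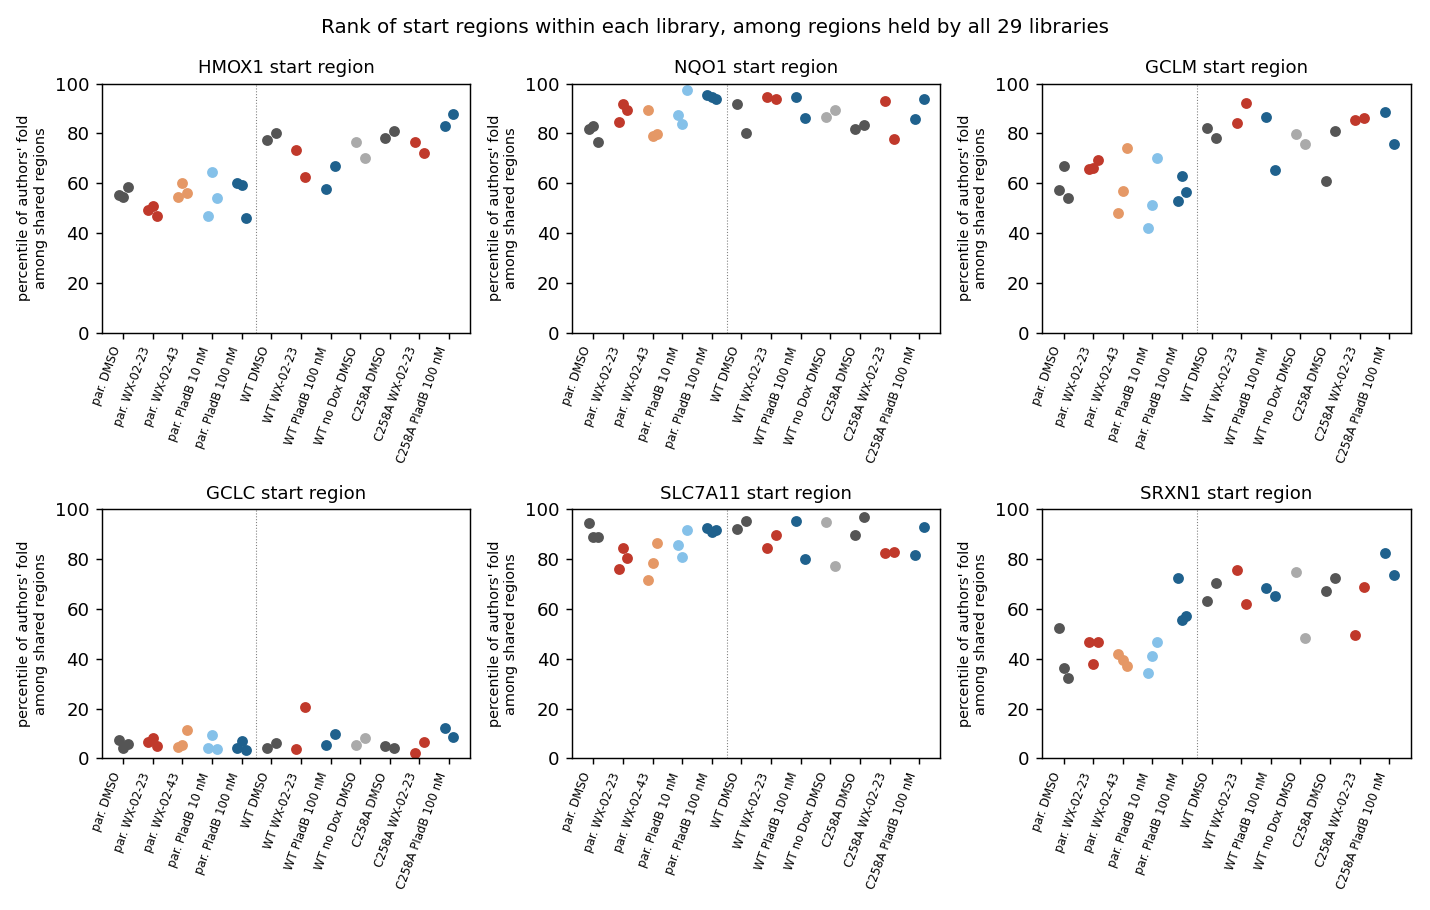
Percentile of the authors' fold among the 35901 regions held by all 29 libraries, for the 6 regions that cover a start, in each library (points) by group; the dotted line parts parental from engineered groups. SLC7A11 sits lower with WX-02-23 than with DMSO in all 3 lines, NQO1 sits at 93.9 to 95.3 with PladB at 100 nM in parental cells, and GCLC stays at 2.31 to 20.6.

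Some of the 66 regions differed between parental and engineered libraries, where line and processing run cannot be told apart, or with Dox. SRXN1 +41.716 kb (chr20:675730-676230) had a peak in 15 of 15 parental and 0 of 14 engineered libraries, a split that 0.614% of all regions showed. TXNRD1 −7.649 kb (chr12:104601399-104601908) had one in 14 of 15 parental and 0 of 14 engineered libraries. Both regions were named after their values were seen, and no share over all regions was counted for the split at TXNRD1. In all, 18 regions (27.3%) were seen in parental and 5 (7.58%) in engineered libraries alone, against 25.2% and 18.5% of all regions. TXNRD1 accounted for 7 of the 18. The comparison of WT-FOXA1 cells with and without Dox, both in DMSO, was added after the data were seen. It gave 1 gained and 2 lost of 40 regions, where 13.2% and 1.1% of all regions were. The gained region was GCLC −18.698 kb (chr6:53390803-53391229), with 13 and 12 reads with Dox. A peak was present there in 11 of 12 libraries with Dox, 0 of 2 without Dox and 0 of 15 parental libraries. GCLC had 5 and 6 peaks with Dox and 3 and 3 without, the 1 locus of 7 without overlap, where 30.9% of tiles had more peaks and 2.22% fewer. Without WT-FOXA1 DMSO replicate 1 or 2, or no Dox replicate 2, the gained count was 2, 3 and 3. Over the 24 shared regions, 5 ranked above and 3 below the libraries without Dox, where 18.2% and 20.1% of shared regions did. The lists without Dox were shorter, with 68505 ± 1852 peaks against 86575 ± 2214, and their background was 0.766 ± 0.0608 against 0.857 ± 0.0177 reads per base (n = 2 each).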

How the data were processed

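ATAC-seq peaks of 29 libraries were used. Per the submitters' processing notes, Bowtie2, MACS2 and build hg19 were used, with no versions. Each library had its own list, so replicates were not pooled. Each deposited peak carries a score, a fold enrichment (a ratio) over local background, the −log10 of the p-value and of the q-value, and a summit offset. The lowest deposited −log10 q was 2.00053 and the narrowest peak 150 bp.

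Autosomal, X and Y peaks were merged over all lists (the merging was checked against bedtools 2.31.1), and a library held a region if a peak overlapped it by at least 1 bp. Summit reads and local background were recovered from the authors' fold and p-value together (tolerance 0.005 in −log10 p), with 1 solution for 96.6% to 99.9% of peaks per list. Differences in peak number per window were tested by exact two-sided permutation, adjusted by Benjamini-Hochberg over all non-overlapping 100 kb tiles with a peak plus the 7 windows. The 90% interval runs from the lowest to the highest difference between a treated and a control library. Alternatives were a window of 25 kb, 1 library allowed to go against the rule, a block for the replicate number, 50% coverage of a region, a q-value of at most 1e-05, lists trimmed to equal length by p-value, and each library left out in turn. The tests were checked on simulated data. Software was scipy 1.17.1, pandas 2.3.3 and numpy 2.4.6 under Python 3.11.15, with figures by matplotlib 3.10.9.

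Regions named are those at or nearest each start, those called in a comparison and the 2 others per locus with the highest mean percentile, plus those said to be named after their values were seen. The genes, lists and tests were chosen with earlier results of these data known. Other pathway genes, cell type markers and gene annotation of regions were not analysed here, because no hg19 annotation was used here.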

Additional observations from a re-analysis of the deposited data

Results flagged for a closer look

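In the WT-FOXA1 line without Dox, which no planned comparison used, 2 regions had a peak in both libraries and in neither Dox library with DMSO. HMOX1 −44.773 kb (chr22:35732042-35732287) had a peak in 2 of 2 libraries without Dox, with 9 and 11 reads, and also in 1 parental DMSO, 1 parental WX-02-43, 2 parental PladB (10 nM) and 1 WT-FOXA1 PladB library. GCLM +29.085 kb (chr1:94404097-94404270) had a peak in 2 of 2 libraries without Dox, and otherwise in 1 parental PladB (100 nM) library, with 9 reads. Among all regions 1.1% showed this pattern. At a q-value of 1e-05 or below neither pattern held. With lists of equal length GCLM +29.085 kb no longer met it.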

How the results depend on the processing

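The alternatives gave 1390 values for 156 results. A change of sign could be scored only where groups did not overlap or passed a test, and not for counts, so most values could not show one. Among those that could, 1 changed sign. Over the 7 loci, C258A-FOXA1 cells with PladB had 0.5 peaks more than DMSO within 25 kb, against -2.5 within 50 kb. Differences whose groups overlapped also changed sign. With lists of equal length these were WX-02-23 (-2 to 3.5) and PladB (-1 to 3.5) in WT-FOXA1 cells and Dox (1 to -3.5), and within 25 kb parental WX-02-43 (-2.33 to 0.667), PladB at 10 nM (-2 to 1) and WT-FOXA1 WX-02-23 (-2 to 0.5). With 1 library left out, the difference over the 7 loci also changed sign in some comparisons. In WT-FOXA1 cells it ranged over -4.5 to 0.5 for WX-02-23, -3.5 to 1.5 for PladB and -1.5 to 3.5 for Dox. In C258A-FOXA1 cells it ranged over -3 to 4 for WX-02-23. Peak presence near the detection limit, and groups of 2 or 3 libraries, limit all counts. Cause was not tested.

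At a q-value of 1e-05 or below, gained regions were 0 for parental WX-02-23 and PladB (10 nM), lost regions 0 for WX-02-43 and for Dox, and 1 for PladB (10 nM). With lists of equal length, lost regions were 0 for WX-02-43, and gained regions 0 for PladB (10 nM), 2 for WT-FOXA1 WX-02-23 and 3 for WT-FOXA1 PladB. The difference in peak number between the stereoisomers was then 0.667. With 50% of the region covered, lost regions were 2 for WX-02-43, 4 for parental PladB (100 nM), 6 and 2 for WX-02-23 and PladB in WT-FOXA1 cells, and 2 and 5 in C258A-FOXA1 cells. Gained regions were 2 for WX-02-23 against WX-02-43, 1 for C258A-FOXA1 PladB and 2 for Dox. With 1 library allowed to go against the rule, gained and lost regions were 3 and 1 for parental WX-02-23, 1 and 3 for WX-02-43, 2 lost for PladB (10 nM), 6 lost at 100 nM, and 3 and 1 between the stereoisomers. In WT-FOXA1 cells they were 4 and 7 for WX-02-23, 5 and 6 for PladB and 6 and 4 for Dox, and in C258A-FOXA1 cells 6 and 3 for WX-02-23 and 3 and 5 for PladB. Within 25 kb, 0 regions were gained with parental WX-02-23 or PladB (10 nM) or lost with WX-02-43, PladB (100 nM) or Dox. The PladB (100 nM) difference in peak number was then -1.33. Shares over all regions were not computed under these alternatives, so the counts cannot show whether the loci differ from other regions.

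Leaving out 1 library can only add all-or-none calls. It does so over the genome too, and no share over all regions was computed for these counts. Gained counts ranged over 1 to 2 for parental WX-02-23, 0 to 1 for WX-02-43, 0 to 1 between the stereoisomers, 1 to 2 and 0 to 4 for WX-02-23 and PladB in WT-FOXA1 cells, 1 to 5 and 0 to 1 in C258A-FOXA1 cells, and 1 to 3 for Dox. Lost counts ranged over 0 to 1, 1 to 3 and 0 to 1 for the first 3 of these, 0 to 2 for PladB (10 nM), 2 to 3 at 100 nM, 0 to 4 and 1 to 2 in WT-FOXA1 cells, 0 to 1 and 1 to 2 in C258A-FOXA1 cells, and 2 to 3 for Dox.

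Replicate numbers did not pair the samples: none of 25 same-numbered pairs had a correlation of deviations over 0.1 (range -0.0625 to 0.0474). With the number as a block the differences and all-or-none counts stay as they are by construction, for example 1.33 peaks for parental WX-02-23, and the count of loci at an unadjusted p of 0.05 with PladB over the 3 lines went from 1 to 0 (GCLC).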
